A study of Homo sapiens with 12 samples.

Results

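The mitochondrial small subunit ribosomal protein genes are the nuclear genes whose products build the small subunit of the mitochondrial ribosome. They were taken from the deposited table of normalized counts by symbol (MRPS, a number and at most 1 letter), together with a minimum of 10 in at least 3 of the 12 libraries. The symbol rule matched 29 genes and 28 of them passed the minimum, out of 25369 genes in the table. All 28 reached 10 in each of the 12 libraries, so none of them entered through a single group. The gene left out was MRPS24, with normalized counts of 2, 1 and 1 in TNIP2 Pulldown and 0 in the 9 other libraries. In RefSeq MRPS24 overlaps a read-through gene joined to URGCP, and how the authors' counting treated overlaps and strand is not given in these sources. Reads of overlapping genes therefore cannot be told apart with certainty, which also touches MRPS2, MRPS6, MRPS7, MRPS9, MRPS16, MRPS18A, MRPS18C, MRPS25, MRPS27, MRPS28 and MRPS34.

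RNA came from HEK293T, a human embryonic kidney line (named HEK293 in the growth protocol), transfected with a plasmid for a Halo-tagged fragment of TNIP2 (residues 196 to 346) or for the Halo tag alone. The Halo tag is an engineered enzyme that binds its resin covalently, and TNIP2 is an adaptor protein known to bind ubiquitin chains and to restrain NF-kB signalling. There were 4 groups of 3 libraries each: TNIP2 Pulldown (RNA recovered with the Halo-purified fragment), TNIP2 Input (total RNA of the same kind of extract), Control Pulldown (RNA recovered with the Halo tag alone) and Control Input. RNA of every group passed through a column kit and removal of ribosomal RNA, and no group was left untransfected. The TNIP2 groups therefore describe a tagged fragment in transfected cells, not the full-length protein at its own level. The labels do not tie the replicates to separate transfections, so p-values here reflect library-to-library spread that may be technical.

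Mitochondrial ribosomes translate the few proteins still encoded by mitochondrial DNA, all of them subunits of the respiratory chain or of the ATP synthase. Their small subunit holds the mitochondrial 12S ribosomal RNA, binds the messenger and reads its codons. All of its proteins are encoded in the nucleus, translated in the cytosol and imported. The transcripts measured here are therefore those of nuclear genes, and their place in the cell was not measured. Of the proteins, some descend from bacterial small subunit proteins and others exist only in mitochondria. A few genes carry the MRPS name although structures have since placed their products in the large subunit or in another mitochondrial complex. The genes are described in these 3 classes.

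Recovered depth was 10317631 to 29545028 reads in TNIP2 Pulldown, 8903033 to 16768317 in TNIP2 Input, 3592520 to 6407048 in Control Pulldown and 13800200 to 20802402 in Control Input. Single members held 64 to 8508 reads in TNIP2 Pulldown, 123 to 3679 in TNIP2 Input, 47 to 1395 in Control Pulldown and 244 to 4453 in Control Input. The transfected gene TNIP2 was higher in TNIP2 Input than in Control Input by 6.26 on the log2 scale (SE 0.57), in the direction of the labels. Of 6 marker genes of the line (KRT8, KRT18, VIM, CDH2, PAX2 and NEFM), PAX2 stayed at 22 normalized counts or fewer in every library, and the summed list held 6159 to 9299 in TNIP2 Pulldown, 5856 to 6878 in TNIP2 Input, 5519 to 7092 in Control Pulldown and 6249 to 6858 in Control Input. Among markers of other tissues, CD3E and HBB were at 0 throughout and PTPRC never passed 1. The libraries numbered 3 of TNIP2 Pulldown and TNIP2 Input stood apart on the second principal component (scores 47.8 and 54.7, against -25.7 to 2.84 in the other libraries), and CD14 reached 82 and 28 normalized counts in them. Results are therefore also given without both of these libraries.

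Of the 28 genes, 27 had a promoter entry in RefSeq (MRPS36 under its current symbol KGD4). The ETS motif CCGGAAG, on either strand within 250 bases before to 50 bases after the start, was present in 12 of 27 (44.4%), against 3321 of 27305 genes with an entry (12.2%). YY1's letters AAGATGGCG occurred in 4 of 27 (14.8%, against 2.14% of all genes) and the NRF1 motif in 2 of 27 (7.41%, against 6.98%). None of these motifs contains another. Their median GC content was 57.6%, against 58% over all genes. To show what such a promoter looks like in genes that went opposite ways in the purification, the 250 bases before the start are printed for the 2 highest and the 2 lowest genes that hold the ETS motif there and have 1 promoter entry. Sequences are from RefSeq, build GRCh38.p14, read 5′ to 3′ on the gene's strand, with the motif or its reverse complement in capitals.
MRPS21, chr1:150293611-150293860, plus strand: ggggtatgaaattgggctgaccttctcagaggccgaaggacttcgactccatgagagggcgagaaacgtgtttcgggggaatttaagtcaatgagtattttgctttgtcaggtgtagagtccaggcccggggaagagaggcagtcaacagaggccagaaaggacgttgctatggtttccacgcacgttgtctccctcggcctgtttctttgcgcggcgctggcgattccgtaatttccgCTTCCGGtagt
MRPS18C, chr4:83455808-83456057, plus strand: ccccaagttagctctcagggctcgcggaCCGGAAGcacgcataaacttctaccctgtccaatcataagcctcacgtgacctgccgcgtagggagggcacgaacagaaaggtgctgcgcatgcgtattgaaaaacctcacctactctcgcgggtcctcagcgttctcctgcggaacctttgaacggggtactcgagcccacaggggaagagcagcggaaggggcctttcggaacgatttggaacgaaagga
MRPS18A, chr6:43687792-43688041, minus strand: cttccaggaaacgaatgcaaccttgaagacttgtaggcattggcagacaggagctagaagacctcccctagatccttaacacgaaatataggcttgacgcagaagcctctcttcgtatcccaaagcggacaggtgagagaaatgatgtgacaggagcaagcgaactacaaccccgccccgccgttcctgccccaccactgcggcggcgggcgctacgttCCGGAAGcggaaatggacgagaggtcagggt
MRPS31, chr13:40771191-40771440, minus strand: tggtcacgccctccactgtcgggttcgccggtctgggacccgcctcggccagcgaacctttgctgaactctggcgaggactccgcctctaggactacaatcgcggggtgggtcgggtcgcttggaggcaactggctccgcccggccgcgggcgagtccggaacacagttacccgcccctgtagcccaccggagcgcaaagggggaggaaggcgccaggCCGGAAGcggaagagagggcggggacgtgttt
The first pair belong to genes that were higher in TNIP2 Pulldown than in TNIP2 Input, and the second pair to genes that were lower. Among the 12 genes with the motif, 3 were higher, 7 lower and 2 not called there, with a median log2 fold change of -0.84. Without the motif, the matching values were 3, 10 and 2 of 15 genes, with a median of -0.96. A match of letters is a description of the sequence and not of a bound factor.

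In the purification with the TNIP2 fragment, most of the mitochondrial small subunit mRNAs were depleted relative to the extract, while a minority was enriched, by 1.29-fold (MRPS26) to 8.68-fold (MRPS28). Of 28 genes, 17 were lower in TNIP2 Pulldown than in TNIP2 Input, 7 were higher and 4 were not called, in a limma fit of log2(normalized count + 1) over all 12 libraries with calls at an adjusted p under 0.05. Over all 14627 genes tested, 58.1% were called in this comparison (29.8% higher and 28.3% lower), beside 24 of the 28 genes (85.7%), so a call was common in this purification. With each library centred on its cytosolic ribosomal protein genes, the split over all genes became 2447 higher and 6006 lower, against 4358 and 4145 as deposited, and that over the 28 became 5 higher and 18 lower. The median log2 fold change of the 28 was -0.87, against 0.01 over all genes tested. Fold changes ran between -2.43 (MRPS17) and 3.12 (MRPS28) on the log2 scale. Without both TNIP2 libraries numbered 3, 16 genes were lower and 8 higher, with a median of -0.89.

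**Figure D1:**
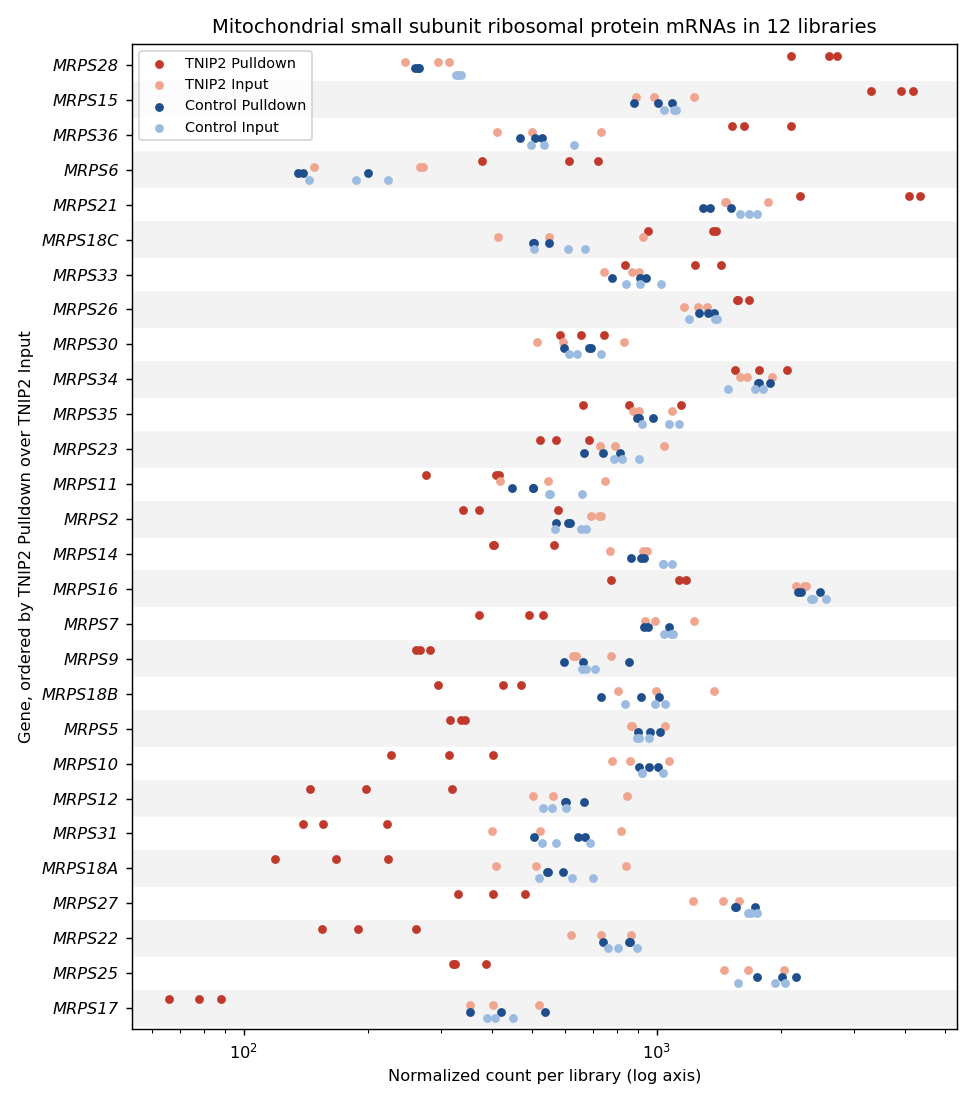
Normalized counts (log axis) of the 28 genes, 1 point per library and 1 colour per group, ordered by the log2 fold change of TNIP2 Pulldown over TNIP2 Input. The TNIP2 Pulldown points lie to the right of all others at the top and to the left at the bottom, while TNIP2 Input, Control Pulldown and Control Input lie together in each row.

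The purified fragment's libraries were also compared with all others at once. In 7 genes every TNIP2 Pulldown library lay above all 9 libraries of the other groups, and in 15 every one lay below them. Over all genes tested these patterns took 26.2% and 23.8%. In the remaining 6 genes (MRPS2, MRPS23, MRPS30, MRPS33, MRPS34 and MRPS35) the libraries overlapped.

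Among the 15 genes whose products have a bacterial small subunit counterpart, 5 were higher in TNIP2 Pulldown than in TNIP2 Input and 10 were lower, with a median log2 fold change of -0.96. MRPS28 encodes the counterpart of a bacterial protein that helps to hold the messenger on the platform of the subunit. It had normalized counts of 2741, 2610 and 2118 in TNIP2 Pulldown, against 296, 246 and 315 in TNIP2 Input. With the tag alone there were 266, 264 and 260 in Control Pulldown and 335, 327 and 331 in Control Input. Each TNIP2 Pulldown library stood far above the 9 others, which kept to a narrow band. The gene was 8.68-fold higher (log2 fold change 3.12, SE 0.15, limma adjusted p = 5.0e-09), the highest fold change of the 28. In RefSeq MRPS28 overlaps a read-through gene that joins it to TPD52, and TPD52 itself was higher (log2 fold change 1.27, SE 0.26, limma adjusted p = 7.2e-04).

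MRPS15, counterpart of a bacterial protein that binds the ribosomal RNA early in assembly, had 3902, 4170 and 3304 in TNIP2 Pulldown, against 985, 889 and 1230 in TNIP2 Input. Its control values were 1091, 1005 and 881 in Control Pulldown and 1041, 1102 and 1111 in Control Input. All TNIP2 Pulldown values were above all others, and the remaining groups overlapped each other. The enrichment was 3.68-fold (log2 fold change 1.88, SE 0.16, limma adjusted p = 2.0e-07).

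MRPS6, MRPS18C and MRPS21 encode platform proteins, and in bacteria their counterparts sit beside each other on the subunit. Normalized counts of MRPS6 were 612, 720 and 377 in TNIP2 Pulldown, against 272, 267 and 148 in TNIP2 Input. In the control libraries they were 135, 200 and 139 in Control Pulldown and 144, 187 and 224 in Control Input. The TNIP2 Pulldown libraries lay above the rest, although those of TNIP2 Input spread widely. MRPS6 was 2.48-fold higher (log2 fold change 1.31, SE 0.28, limma adjusted p = 0.0011). SLC5A3, a sodium and inositol transporter gene that overlaps MRPS6 in RefSeq, had a log2 fold change of 0.13 (SE 0.32, limma adjusted p = 0.75).

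MRPS21 had 4088, 4341 and 2222 in TNIP2 Pulldown, against 1470, 1465 and 1861 in TNIP2 Input. Control values were 1346, 1293 and 1510 in Control Pulldown and 1747, 1672 and 1593 in Control Input. Replicate 3 of TNIP2 Pulldown was the lowest of its group by a wide margin, yet it exceeded every library of the other groups. The fold change was 2.14 (log2 fold change 1.10, SE 0.21, limma adjusted p = 4.4e-04). For MRPS18C, the bacterial-type member of 3 MRPS18 genes, the values were 1373, 953 and 1389 in TNIP2 Pulldown, against 549, 414 and 928 in TNIP2 Input. They were 501, 548 and 505 in Control Pulldown and 672, 610 and 504 in Control Input. The lowest TNIP2 Pulldown library and the highest TNIP2 Input library, replicate 3, came close to each other without overlap. MRPS18C was 2.05-fold higher (log2 fold change 1.03, SE 0.25, limma adjusted p = 0.0022), but with the libraries centred on cytosolic ribosomal protein genes its log2 fold change was 0.57 and the call was lost (limma adjusted p = 0.13).

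On the depleted side of the same class, MRPS17 stood lowest. Its product is the counterpart of a bacterial protein that binds the ribosomal RNA directly. It had 88, 66 and 78 in TNIP2 Pulldown, against 401, 354 and 520 in TNIP2 Input. With the tag alone it had 536, 420 and 354 in Control Pulldown and 448, 406 and 388 in Control Input. The TNIP2 Pulldown values were separate from and below all others, and the remaining 9 libraries overlapped. MRPS17 was 5.40-fold lower (log2 fold change -2.43, SE 0.20, limma adjusted p = 1.5e-07).

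MRPS12, whose bacterial counterpart lines the decoding centre, had 198, 145 and 319 in TNIP2 Pulldown, against 561, 503 and 849 in TNIP2 Input. Replicate 3 was the highest library in both TNIP2 groups, and the groups did not overlap (log2 fold change -1.56, SE 0.25, limma adjusted p = 8.1e-05). MRPS10, a protein of the head of the subunit, had 402, 227 and 315 in TNIP2 Pulldown, against 862, 779 and 1071 in TNIP2 Input. All TNIP2 Pulldown libraries were lower (log2 fold change -1.55, SE 0.19, limma adjusted p = 8.4e-06). MRPS5, whose bacterial counterpart lies where the messenger enters, had 316, 343 and 335 in TNIP2 Pulldown, against 873, 865 and 1045 in TNIP2 Input. Here replicates were close within each group and the groups were well apart (log2 fold change -1.48, SE 0.14, limma adjusted p = 4.9e-07).

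MRPS9, whose bacterial counterpart reaches towards the transfer RNA sites, had 267, 262 and 282 in TNIP2 Pulldown, against 626, 639 and 775 in TNIP2 Input. The 3 TNIP2 Pulldown libraries lay close together and below the others (log2 fold change -1.32, SE 0.16, limma adjusted p = 6.4e-06). MRPS7, the bacterial counterpart of which starts the folding of the head, was lower as well (log2 fold change -1.18, SE 0.16, limma adjusted p = 2.1e-05), with 532, 372 and 491 in TNIP2 Pulldown, against 992, 939 and 1230 in TNIP2 Input. MRPS16, a protein of the body, had 1131, 1178 and 776 in TNIP2 Pulldown, against 2298, 2176 and 2278 in TNIP2 Input. No library of TNIP2 Pulldown came near the TNIP2 Input range (log2 fold change -1.15, SE 0.16, limma adjusted p = 2.2e-05). MRPS14, another head protein, differed by less but without overlap, at 563, 403 and 402 in TNIP2 Pulldown, against 925, 771 and 950 in TNIP2 Input (log2 fold change -0.96, SE 0.16, limma adjusted p = 1.1e-04).

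MRPS2 and MRPS11 fell least among the depleted genes of this class, and of these MRPS2 kept its call under every alternative in this comparison. MRPS2, near the junction of head and body, had 372, 339 and 578 in TNIP2 Pulldown, against 724, 732 and 693 in TNIP2 Input. Replicate 3 was the highest TNIP2 Pulldown library but stayed below TNIP2 Input (log2 fold change -0.78, SE 0.18, limma adjusted p = 0.0020). MRPS11, a platform protein, had 415, 277 and 409 in TNIP2 Pulldown, against 547, 418 and 748 in TNIP2 Input. The groups came within a few counts of each other, and the fall (log2 fold change -0.62, SE 0.21, limma adjusted p = 0.021) lost its call without replicate 3 of TNIP2 Input (log2 fold change -0.40, adjusted p = 0.095) and without replicate 2 of TNIP2 Pulldown (-0.43, adjusted p = 0.11).

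Among the 10 genes of mitochondria-specific small subunit proteins, 1 was higher, 6 were lower and 3 were not called, with a median log2 fold change of -0.97. Many of these proteins lie on the outside of the subunit, and except for MRPS18B, a paralog of the bacterial-type MRPS18C, they have no bacterial counterpart. MRPS25 had 322, 325 and 386 in TNIP2 Pulldown, against 1667, 2039 and 1455 in TNIP2 Input. Its control libraries held 1750, 2009 and 2180 in Control Pulldown and 1574, 1935 and 2041 in Control Input. The TNIP2 Pulldown libraries were close together and far below the rest, which overlapped. MRPS25 was 4.95-fold lower (log2 fold change -2.31, SE 0.17, limma adjusted p = 6.1e-08). In RefSeq its span overlaps that of NR2C2, a nuclear receptor gene, which was higher (log2 fold change 1.04, SE 0.24, limma adjusted p = 0.0018).

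MRPS22, mutated in an inherited mitochondrial disease, had 262, 155 and 189 in TNIP2 Pulldown, against 735, 621 and 869 in TNIP2 Input. Control libraries held 856, 862 and 740 in Control Pulldown and 898, 806 and 763 in Control Input. There was no overlap between TNIP2 Pulldown and any other group. The gene was 3.71-fold lower (log2 fold change -1.89, SE 0.19, limma adjusted p = 1.2e-06). MRPS27, a protein of the RNA-binding pentatricopeptide repeat family, had 479, 402 and 331 in TNIP2 Pulldown, against 1585, 1444 and 1222 in TNIP2 Input. It had 1561, 1729 and 1548 in Control Pulldown and 1754, 1662 and 1696 in Control Input. Again the 9 other libraries formed 1 range, well above TNIP2 Pulldown. MRPS27 was 3.52-fold lower (log2 fold change -1.82, SE 0.16, limma adjusted p = 2.9e-07).

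MRPS31 had 139, 156 and 222 in TNIP2 Pulldown, against 522, 399 and 820 in TNIP2 Input. The values with the tag alone were 644, 671 and 505 in Control Pulldown and 688, 570 and 527 in Control Input. Replicate 3 was the highest in each TNIP2 group, and TNIP2 Pulldown lay below all others (log2 fold change -1.71, SE 0.25, limma adjusted p = 3.3e-05). The pseudogene MRPS31P5 is a copy of this gene, so the division of reads between them is uncertain. It had normalized counts of 96, 98 and 173 in TNIP2 Pulldown, against 209, 188 and 389 in TNIP2 Input (log2 fold change -1.07, SE 0.27, limma adjusted p = 0.0034).

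MRPS18B, the second gene of the MRPS18 family, had 425, 295 and 469 in TNIP2 Pulldown, against 997, 806 and 1375 in TNIP2 Input. It had 1011, 916 and 735 in Control Pulldown and 1048, 990 and 840 in Control Input. TNIP2 Pulldown lay below the rest, which overlapped (log2 fold change -1.41, SE 0.22, limma adjusted p = 6.4e-05). MRPS23 had 684, 569 and 521 in TNIP2 Pulldown, against 792, 731 and 1041 in TNIP2 Input, with no overlap between these groups (log2 fold change -0.52, SE 0.17, limma adjusted p = 0.015). Its values in TNIP2 Pulldown did overlap those of Control Pulldown. The call was lost without replicate 3 of TNIP2 Input (log2 fold change -0.37, adjusted p = 0.058) and without both TNIP2 libraries numbered 3 (-0.29, adjusted p = 0.089).

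The higher gene of this class was MRPS26, with 1673, 1566 and 1575 in TNIP2 Pulldown, against 1322, 1168 and 1257 in TNIP2 Input. The groups were apart but close (log2 fold change 0.36, SE 0.13, limma adjusted p = 0.027). Without replicate 2 of TNIP2 Input (0.32, adjusted p = 0.095) or replicate 1 of TNIP2 Pulldown (0.33, adjusted p = 0.061) the call was lost, and with centring on cytosolic ribosomal protein genes the direction turned (-0.10). MRPS33 had 1238, 1430 and 838 in TNIP2 Pulldown, against 872, 746 and 905 in TNIP2 Input. Replicate 3 of TNIP2 Pulldown fell inside the TNIP2 Input range while the other two lay above it (log2 fold change 0.44, SE 0.19, limma adjusted p = 0.054). With the replicate number as a block, shared by the TNIP2 and Control libraries, limma called MRPS33 higher (0.44, adjusted p = 0.047). With a block within each construct, limma's adjusted p of MRPS33 was 0.042. Without both libraries numbered 3 its log2 fold change was 0.72 (adjusted p = 6.0e-04).

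MRPS34 and MRPS35 were not called. MRPS34, mutated in a form of Leigh syndrome, had 1774, 1546 and 2073 in TNIP2 Pulldown, against 1658, 1593 and 1907 in TNIP2 Input, with full overlap (log2 fold change 0.06, SE 0.15, limma adjusted p = 0.76). MRPS35 had 1147, 664 and 855 in TNIP2 Pulldown, against 908, 875 and 1091 in TNIP2 Input. TNIP2 Pulldown spanned the whole TNIP2 Input range there (log2 fold change -0.14, SE 0.18, limma adjusted p = 0.54).

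**Figure D2:**
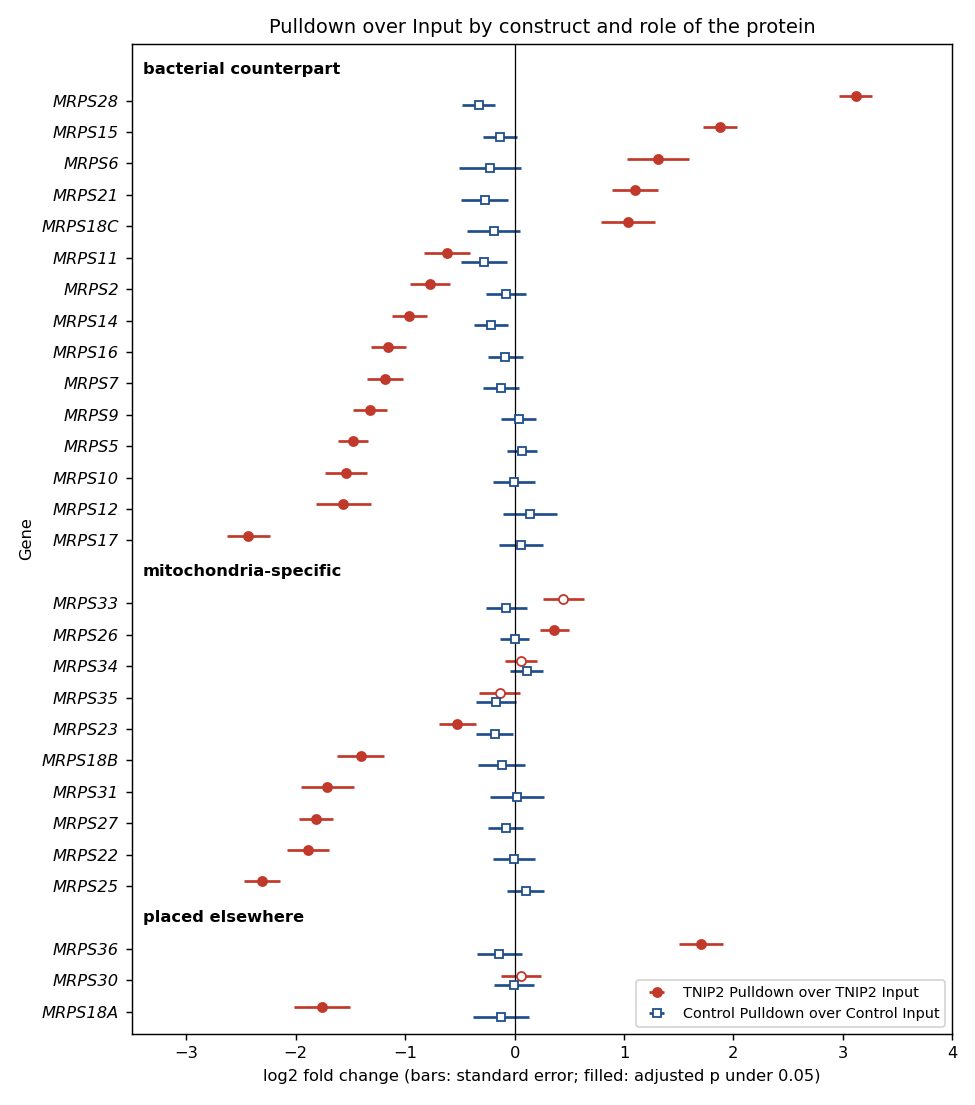
Log2 fold change of Pulldown over Input for each gene with the TNIP2 fragment (red circles) and with the tag alone (blue squares), grouped by the class of the protein; bars are standard errors and filled symbols mark an adjusted p under 0.05. The TNIP2 values spread between -2.43 and 3.12, and no blue symbol is filled.

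Of the 3 genes whose products structures have placed elsewhere, 1 was higher, 1 lower and 1 not called. MRPS36, now known as an assembly factor of the 2-oxoglutarate dehydrogenase complex of the citric acid cycle, had 2115, 1520 and 1630 in TNIP2 Pulldown, against 498, 411 and 734 in TNIP2 Input. It had 507, 466 and 528 in Control Pulldown and 631, 534 and 495 in Control Input. All TNIP2 Pulldown libraries were above the rest, with replicate 3 of TNIP2 Input the highest of the others. The gene was 3.26-fold higher (log2 fold change 1.71, SE 0.20, limma adjusted p = 5.4e-06). MRPS18A, the third MRPS18 gene and a protein of the large subunit, had 167, 119 and 224 in TNIP2 Pulldown, against 509, 409 and 843 in TNIP2 Input. It had 593, 542 and 546 in Control Pulldown and 700, 625 and 518 in Control Input. The TNIP2 Pulldown libraries were below all others (log2 fold change -1.76, SE 0.26, limma adjusted p = 3.8e-05). MRPS30, also a large subunit protein, had 585, 745 and 656 in TNIP2 Pulldown, against 592, 512 and 834 in TNIP2 Input, which overlapped (log2 fold change 0.06, SE 0.18, limma adjusted p = 0.8). The 3 MRPS18 paralogs thus had log2 fold changes of 1.03 (MRPS18C), -1.41 (MRPS18B) and -1.76 (MRPS18A), and the differences between the genes were not tested.

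With the tag alone, the purification left the composition of these transcripts close to that of the extract. In Control Pulldown against Control Input, 0 of 28 genes were called by limma in either direction, 1 had an unadjusted p under 0.05, and the voom fit on recovered reads also called 0. Over all genes 0.137% were called, and 342 had an unadjusted p under 0.05. Log2 fold changes lay between -0.33 (MRPS28) and 0.14 (MRPS12), with a median of -0.08, against -0.01 over all genes. MRPS28, the most enriched gene with the TNIP2 fragment, had the lowest fold change here, with 266, 264 and 260 in Control Pulldown, against 335, 327 and 331 in Control Input, with no overlap and no call after adjustment (SE 0.15). Control Pulldown was the shallowest group, so a small change could be missed there.

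In the extracts, the TNIP2 fragment was compared with the tag alone. For TNIP2 Input against Control Input, limma called 0 of 28 genes, 0 had an unadjusted p under 0.05, and voom called 0. Of all genes tested 0.00684% were called, and 104 had an unadjusted p under 0.05. Log2 fold changes ran between -0.27 (MRPS27) and 0.28 (MRPS6), with a median of -0.07, against -0.01 over all genes. That median was 0.17 with the libraries centred on cytosolic ribosomal protein genes, so its sign depends on the scaling. It was 0.05 without replicate 2 of TNIP2 Input, -0.02 without replicate 1 of Control Input, -0.03 without replicate 1 of TNIP2 Input and -0.18 without both TNIP2 libraries numbered 3, where 0 genes were called. Replicate 3 was the highest TNIP2 Input library in 22 of the 28 genes. The share over all genes was not counted, so this may not be particular to the 28. That library was also the shallowest of TNIP2 Input (8903033 reads).

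The purified fractions were then set against each other. In TNIP2 Pulldown against Control Pulldown, 15 genes were lower, 6 higher and 7 not called, while 59.4% of all genes were called (30.6% higher and 28.7% lower; 2970 higher and 5344 lower with the centred libraries). The median log2 fold change was -0.76, against 0.03 over all genes. This comparison shares its TNIP2 Pulldown libraries with the one above, so the values are given side by side and are not independent. MRPS28 had log2 fold changes of 3.23 against Control Pulldown (SE 0.15, adjusted p = 3.4e-09) and 3.12 against TNIP2 Input. For MRPS15 they were 1.93 and 1.88, for MRPS6 1.82 and 1.31, and for MRPS36 1.80 and 1.71. On the lower side, MRPS25 had -2.52 (SE 0.17, limma adjusted p = 3.0e-08) and -2.31, and MRPS17 -2.47 and -2.43.

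The 3 genes called against TNIP2 Input but not against Control Pulldown were MRPS11, MRPS23 and MRPS26. MRPS11 had 415, 277 and 409 in TNIP2 Pulldown, against 501, 501 and 447 in Control Pulldown (log2 fold change -0.42, SE 0.21, limma adjusted p = 0.1). Those of MRPS23 were 684, 569 and 521 in TNIP2 Pulldown, against 813, 667 and 743 in Control Pulldown, and overlapped (log2 fold change -0.33, SE 0.17, limma adjusted p = 0.1). Those of MRPS26 were 1673, 1566 and 1575 in TNIP2 Pulldown, against 1329, 1267 and 1376 in Control Pulldown, without overlap (log2 fold change 0.28, SE 0.13, limma adjusted p = 0.08). Whether these genes differ between the comparisons was not tested. MRPS2 was lower in TNIP2 Pulldown (log2 fold change -0.52, SE 0.18, limma adjusted p = 0.024), and lost its call without replicate 1 or 2 of TNIP2 Pulldown (-0.43 and -0.37, adjusted p = 0.082 and 0.11) or of Control Pulldown (-0.50 in both, adjusted p = 0.064 and 0.063). Without both TNIP2 libraries numbered 3, 16 genes were lower and 8 higher, MRPS33 among the higher ones (log2 fold change 0.60, adjusted p = 0.0011).

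The difference of enrichments is the log2 change of TNIP2 Pulldown over TNIP2 Input minus that of Control Pulldown over Control Input. Here 15 genes were lower, 6 higher and 7 not called, with a median of -0.72 on the log2 scale, against 0.02 over all genes. Of all genes 42.8% were called (22.6% higher and 20.2% lower; 1509 higher and 4907 lower with the centred libraries). The 6 higher genes were MRPS28 (3.45, SE 0.21, limma adjusted p = 4.8e-07), MRPS15, MRPS36, MRPS6, MRPS21 and MRPS18C. All of them but MRPS36 encode counterparts of bacterial small subunit proteins. Within that class 5 were higher and 9 lower of 15, and among the mitochondria-specific proteins limma called 0 higher and 5 lower of 10. Those 5 were also the only ones of the 10 with an unadjusted p under 0.05. The difference between these classes was not tested. MRPS17 had -2.49 (SE 0.28, limma adjusted p = 1.1e-05) and MRPS25 -2.41 (SE 0.24, limma adjusted p = 4.6e-06). MRPS2 was near the threshold (-0.70, limma adjusted p = 0.04) and lost its call when any 1 library other than replicate 3 of either TNIP2 group was left out (values between -0.75 and -0.55). Without both TNIP2 libraries numbered 3, 15 genes were lower and 7 higher, MRPS33 being the added one (0.80, limma adjusted p = 0.0025).

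The abundance of the genes per length was taken from the deposited FPKM values of 27 of them. MRPS18B was left out because its recovered exonic length of 10736 bases exceeds its 8553-base RefSeq span. In TNIP2 Pulldown the highest FPKM was 52.1 times the lowest, against 7.40 times in TNIP2 Input, 11.3 times in Control Pulldown and 8.95 times in Control Input. MRPS34 had the highest mean FPKM in TNIP2 Input (151 ± 14.5, SD, n = 3), in Control Pulldown (158 ± 5.74) and in Control Input (147 ± 14.8), and MRPS6 the lowest (20.4 ± 6.22, 14 ± 3.26 and 16.4 ± 3.57). In TNIP2 Pulldown MRPS15 was highest (345 ± 40.4) and MRPS25 lowest (6.63 ± 0.70). MRPS28 took rank 2 of 27 in TNIP2 Pulldown (310 ± 40.9), against rank 21 in TNIP2 Input (35.5 ± 4.45); MRPS15 and MRPS28 did not differ beyond their spread in TNIP2 Pulldown. MRPS17 took rank 25 in TNIP2 Pulldown (11.6 ± 1.66), against rank 8 in TNIP2 Input (63.9 ± 12.9). Summed over the 28 genes, the normalized counts made up 0.192%, 0.172% and 0.185% of the TNIP2 Pulldown libraries and 0.228% to 0.270% of the 9 others. The sums themselves were 28010, 25898 and 23364 in TNIP2 Pulldown, against 25038, 23211 and 28994 in TNIP2 Input. These sums overlapped, so the lower share did not come with a lower sum.

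**Figure D3:**
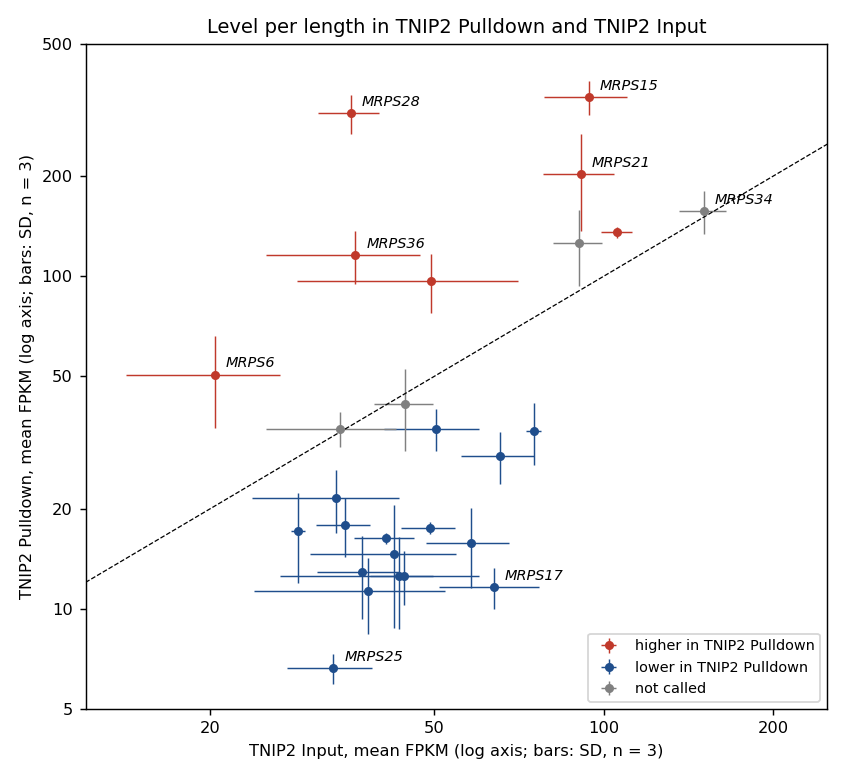
Mean FPKM (log axes) of 27 genes in TNIP2 Pulldown (vertical) and TNIP2 Input (horizontal), with SD bars over 3 libraries each, coloured by the call; the dashed line marks equal levels. MRPS28, MRPS15, MRPS21, MRPS36 and MRPS6 lie above the line and the depleted genes below it, with MRPS25 at 6.63 FPKM in TNIP2 Pulldown.

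Exonic length was set beside the fold change because these genes are short. Recovered lengths ran between 585 bases (MRPS17) and 4566 bases (MRPS25), with a median of 1415 bases, against 3194 bases over all genes tested. Across the 27 genes, the log2 fold change of TNIP2 Pulldown over TNIP2 Input had a Spearman rho of -0.36 and a Pearson r of -0.44 with length. Without MRPS17, the shortest and the most depleted, rho was -0.52. MRPS17 runs against the negative sign and was the only gene left out in this way. The value without MRPS28, which is also short but the most enriched, was not computed. Over the 48 large subunit genes rho was -0.03, and over 14626 genes tested it was 0.22, the other sign. These are descriptions across genes, which share their libraries and are not independent replicates. Among the short genes MRPS28 (707 bases) was enriched and MRPS17 (585 bases) depleted, so that the 2 shortest genes lay at the 2 ends of the fold changes.

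**Figure D4:**
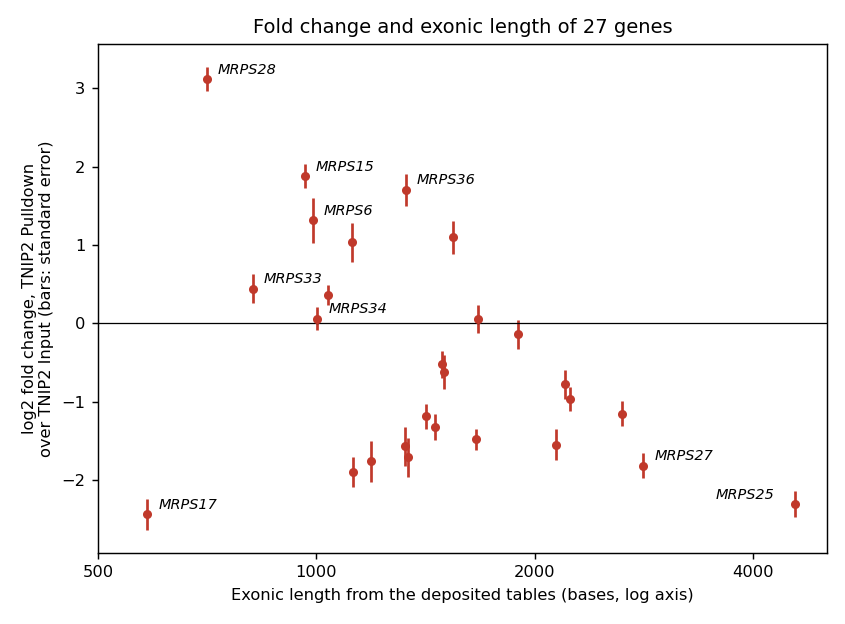
Log2 fold change of TNIP2 Pulldown over TNIP2 Input (bars are standard errors) against exonic length in bases (log axis) for 27 genes. The genes called higher are at most 1541 bases long, and the longest, MRPS25, is depleted. Genes called lower also lie below that length, among them MRPS17 (the shortest), MRPS22 (1122 bases), MRPS18A (1189 bases) and MRPS9 (1458 bases).

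Other parts of the mitochondrial translation apparatus were counted in the same fit. Of 4 further small subunit proteins that carry other names, 1 was higher and 2 were lower in TNIP2 Pulldown than in TNIP2 Input. DAP3, the GTP-binding protein of the subunit, was higher (log2 fold change 0.58, SE 0.12, limma adjusted p = 8.8e-04). PTCD3, a pentatricopeptide repeat protein at the messenger channel, was lower (-0.76, SE 0.14, limma adjusted p = 2.1e-04), as was AURKAIP1 (-0.58, SE 0.16, limma adjusted p = 0.0069). CHCHD1 had a log2 fold change of 0.05 (SE 0.15, limma adjusted p = 0.82).

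For the mitochondrial large subunit, 10 of 48 genes were higher and 25 lower, with a median of -0.94, beside -0.87 for the small subunit. In the cytosolic small subunit 13 of 32 genes were higher and 10 lower, with a median of 0.13. The median of the mitochondrial small subunit genes in each library, relative to the mean of Control Input, was -0.83, -1.06 and -0.75 in TNIP2 Pulldown, against -0.11, -0.24 and 0.18 in TNIP2 Input. It was -0.04, -0.06 and -0.15 in Control Pulldown and 0.10, -0.02 and -0.04 in Control Input. The interquartile range over the 28 genes was 1.71 to 2.26 in TNIP2 Pulldown and at most 0.38 in the other libraries. The genes were thus spread apart from each other as well as shifted. Such a spread was not particular to them. In TNIP2 Pulldown it was 1.77, 1.91 and 2.19 over the mitochondrial large subunit genes. Over the cytosolic small subunit genes it was 1.97, 2.03 and 1.55. TNIP2 Pulldown over TNIP2 Input compares a purified fraction with total RNA of the same kind of extract. The normalized counts give shares of the RNA recovered, not amounts. Between TNIP2 Input and Control Input, bulk RNA could not tell fewer cells holding a transcript from less of it per cell.

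**Figure D5:**
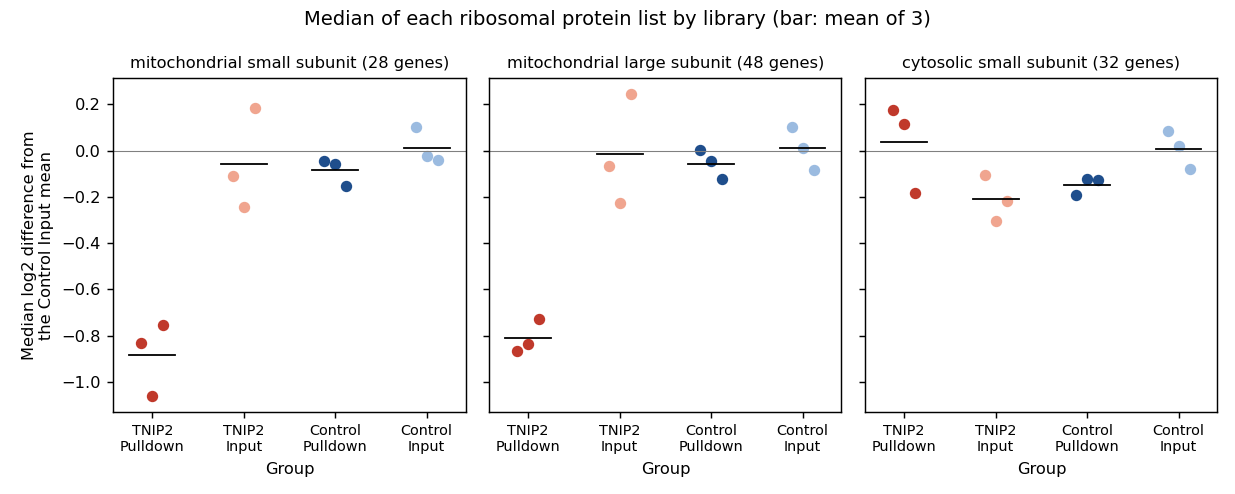
Median log2 difference from the Control Input mean in each library (points) and its mean over 3 libraries (bars) for the mitochondrial small subunit, mitochondrial large subunit and cytosolic small subunit genes. In TNIP2 Pulldown the mitochondrial small subunit lies between -1.06 and -0.75, and the cytosolic small subunit between -0.18 and 0.17.

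Of 10 genes for modification of the 12S ribosomal RNA and assembly of the subunit, 2 were higher, 3 lower and 5 not called. NOA1, a GTPase needed for assembly, was higher (log2 fold change 1.36, SE 0.15, limma adjusted p = 3.3e-06), as was the assembly factor METTL17 (1.01, SE 0.16, limma adjusted p = 7.6e-05). TFB1M, which methylates the 12S ribosomal RNA, was lower (-1.18, SE 0.16, limma adjusted p = 1.5e-05), and so were YBEY (-0.97, SE 0.19) and GRSF1 (-0.58, SE 0.14). The rRNA methyltransferases NSUN4 and METTL15 and the chaperone ERAL1 had -0.13, -0.35 and -0.03 and were not called.

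Among 16 mitochondrial translation factors and their partners, 5 were higher, 7 lower and 4 not called, with a median of -0.16. C12orf65, related to release factors, had the highest fold change (2.25, SE 0.16, limma adjusted p = 5.6e-08). SLIRP and LRPPRC, which together stabilize mitochondrial mRNAs, were both higher (1.40, SE 0.20, and 1.06, SE 0.15). The initiation factors went opposite ways, with MTIF3 higher (1.10, SE 0.20, limma adjusted p = 2.3e-04) and MTIF2 lower (-1.20, SE 0.14, limma adjusted p = 3.5e-06). Of the genes for elongation factors and related GTPases, TUFM (-1.42, SE 0.18), GUF1 (-1.15, SE 0.14) and GFM2 (-0.56, SE 0.17) were lower. GFM1 was higher (0.63, SE 0.18), while TSFM was not called (-0.08, SE 0.16). OXA1L, which inserts the finished proteins into the inner membrane, was lower (-1.69, SE 0.16, limma adjusted p = 5.1e-07). The shares called in these lists, 50% to 75%, stand beside 58.1% over all genes.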

How the data were processed

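RNA sequencing values of 12 HEK293T libraries in 4 groups of 3 were used. Per the submitters' processing notes, TopHat2 2.0.14, DESeq2 1.6.3 and hg19 were used. Counter, annotation and strand setting are not given in the sources used. The normalized count deposited by the authors is treated as a score, since its whole numbers are rounded products of the deposited FPKM and 1 constant per gene. That the authors divided reads by library factors and rounded the result is inferred from the values. Columns lettered C, I and P match the titles, and the remaining letter was taken as the TNIP2 fragment because the series has no other construct.

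Low deposited FPKM values were whole multiples of a step per library, which gave whole reads and exonic length. Of 686 to 2697 low values per library, 100% were whole to within 0.1 reads. The constants of low genes had been refined on such low values beforehand. That share is therefore partly built in and is not a separate check of the reads. Lengths were scaled on 31 snoRNA genes, 28 of which fell within 1% of their RefSeq span. Both steps of the search were tested on simulated data. In R 4.3.3, limma 3.58.1 (lmFit, eBayes with trend, 8 residual degrees of freedom, two-sided) fitted log2(normalized count + 1) over all 12 libraries with a mean per group; the added 1 shrinks fold changes of low genes. P-values were adjusted by the Benjamini-Hochberg method over 14627 genes with 10 or more in at least 3 libraries, and calls were made at 0.05. The 5 comparisons are the 4 between groups given in the text and the difference of enrichments.

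Every member is named; counts per library are given for the 6 highest and 6 lowest fold changes of TNIP2 Pulldown over TNIP2 Input, for genes called higher in the difference of enrichments, for the MRPS18 paralogs, and for further members beside their tests. Members, classes and lists were chosen with earlier results of these data known. Deviations from the group means correlated between same-numbered Pulldown and Input libraries at 0.37, 0.46 and 0.50 with the TNIP2 fragment and at 0.07 to 0.08 with the tag alone. Deviations within a group of 3 are tied to each other. The outlying TNIP2 libraries numbered 3 can thus raise all of the TNIP2 values at once, and these are not separate signs of pairing. The labels do not say that the numbers mark pairs, and the main fit did not use them. They entered only as a block in the alternatives. Alternatives were pseudocounts of 0.5 and 5, filters, quantile normalization, centring on cytosolic ribosomal protein genes, FPKM, voom with TMM factors on recovered reads, the replicate block, a fit on only the libraries compared, and leaving out each library. After the data were seen, a block within each construct and a fit without both TNIP2 libraries numbered 3 were added. A planned quasi-likelihood count test was not run; voom on the recovered reads was used in its place.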

Additional observations from a re-analysis of the deposited data

Results flagged for a closer look

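The Pulldown-over-Input change differed between the TNIP2 fragment and the tag alone in 21 of the 28 genes, by limma's test of the difference itself, while 42.8% of all genes tested passed it. On the log2 scale the difference was positive for MRPS28 (3.45), MRPS15 (2.01), MRPS36 (1.85), MRPS6 (1.54), MRPS21 (1.37) and MRPS18C (1.23). It was negative for MRPS17 (-2.49), MRPS25 (-2.41), MRPS22 (-1.89), MRPS31 (-1.74), MRPS27 (-1.73), MRPS12 (-1.71), MRPS18A (-1.64), MRPS10 (-1.54), MRPS5 (-1.54), MRPS9 (-1.36), MRPS18B (-1.29), MRPS16 (-1.07), MRPS7 (-1.06), MRPS14 (-0.75) and MRPS2 (-0.70). No group held enough libraries for a test of single outlying libraries.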

How the results depend on the processing

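Across 24 alternatives for TNIP2 Pulldown against TNIP2 Input, 20 of the 24 genes called kept their call under each; the exceptions were MRPS26, MRPS11, MRPS23 and MRPS18C. Across 23 alternatives, 20 of 21 kept it against Control Pulldown (not MRPS2) and 19 of 21 in the difference of enrichments (not MRPS2 and MRPS18C). The planned quasi-likelihood test was not run. Centring on cytosolic ribosomal protein genes moved the median over all genes by -0.46, -0.30 and -0.55 in these comparisons, and the medians of the 28 genes became -1.34, -1.10 and -1.30. It turned the direction of MRPS26 against TNIP2 Input (-0.10) and of the median in TNIP2 Input against Control Input (0.17, with an all-gene shift of 0.23); both follow from the shift that the centring adds to every gene. MRPS26 also lost its call under quantile normalization (0.02, limma adjusted p = 0.89), voom (0.29, adjusted p = 0.060) and the fit on only these libraries (adjusted p = 0.13).

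Leaving out each library in turn gave 15 to 17 lower and 6 to 8 higher genes (median -0.94 to -0.75) against TNIP2 Input, 14 to 15 and 6 to 7 (-0.84 to -0.65) against Control Pulldown, and 14 to 15 and 6 to 7 (-0.77 to -0.61) for the difference of enrichments. For Control Pulldown against Control Input and for TNIP2 Input against Control Input the counts stayed at 0, with medians of -0.10 to -0.05 and -0.18 to 0.05. With the replicate block, 17 genes were lower and 8 higher against TNIP2 Input, also with the block within each construct. Neither block changed any call but that of MRPS33. Depth limits Control Pulldown most.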
